A study of Mus musculus with 15 samples.

Results

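The response of control macrophages to medium conditioned by mammary tumor cells was measured gene by gene. The comparison took 2 libraries of STAT5 fl/fl bone marrow-derived macrophages (BMDMs) stimulated with 4T1 conditioned medium (4T1 CM). It set them against the 2 libraries of the same mice's BMDMs in serum-free DMEM. The contrast was thus between 4 of the 15 libraries of the series, while all 15 entered the fit that gave its p-values. The members were chosen by the sample labels alone, and libraries were paired by the number of the mouse, 112 or 113. Of 55385 genes in the count table, the 13005 with a CPM (the count scaled to the size of its library) above 1 in at least 2 libraries were tested.

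The study asked what STAT5 does in macrophages exposed to tumor cell factors. All mice were on the BALB/c background, were 6 weeks old and carried floxed Stat5 alleles (Stat5 fl/fl). The fl/fl mice used here had no Cre, and the STAT5 cKO mice carried in addition a Csf1r-iCre transgene, which drives recombination in Csf1r-expressing myeloid cells. BMDMs, which are grown from marrow progenitors in culture, were left in DMEM, or received either 4T1 CM or the mouse cytokine GM-CSF in recombinant form (rmGM-CSF) at 20 ng/mL, and total RNA was sequenced. 4T1 is a BALB/c mammary carcinoma line used as a model of triple-negative breast cancer, and its conditioned medium is a mixture of secreted factors that was not defined in these data. Each fl/fl group holds 2 libraries, from 2 mice, and each cKO group 3.

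Macrophages read secreted signals through surface receptors whose pathways end on a few families of transcription factors. Cytokine receptors act through JAK kinases and STAT proteins, growth factor and lipid receptors through the MAPK cascade and the immediate early genes, receptors that raise cyclic AMP through CREB, and microbial or TNF-type signals through NF-kB. Each pathway quickly induces its own inhibitors, among them the SOCS proteins, the dual-specificity phosphatases and the IkB proteins. In tumors, macrophages are known for the release of chemokines, growth factors and proteases that act on vessels, matrix and other immune cells.

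The 4 libraries held 19950352 to 22426047 counts in genes, and 1 normalized CPM stood for 19.4 to 23.7 counts. Mitochondrial genes took 1.92 to 2.04% of counts in DMEM and 2.20 to 2.27% in 4T1 CM. Macrophage identity was checked with 8 markers: all were expressed, with a summed level of 24626 to 25024 CPM in DMEM and 28831 to 29832 CPM in 4T1 CM, and Csf1r itself was at 3985 and 4187 CPM in DMEM and 3939 and 4124 CPM in 4T1 CM. Most defining genes of other cells were at or near 0. No more than 3 counts were found in any of the 4 libraries for 7 of 8 neutrophil, 5 of 6 T cell, 4 of 4 NK cell, 4 of 4 erythroid, 3 of 4 mast cell and 6 of 7 epithelial markers, among them Epcam, Krt8 and Krt18. The T cell marker above that floor was Cd4, with 220 and 248 counts in DMEM and 183 and 184 counts in 4T1 CM. The epithelial marker above it was Cdh1, a gene that macrophages can express as well, with 0 counts in DMEM and 63 and 84 counts in 4T1 CM. The summed level of dendritic cell, B cell and fibroblast markers reached no more than 1.95, 0.716 and 2.37 CPM. Endothelial markers summed to 118 to 126 CPM in DMEM and 98.2 to 111 CPM in 4T1 CM, nearly all of it Kdr, and the mast cell marker Kit fell from 20.1 and 15.8 CPM to 8.17 and 6.24 CPM. The floxed genes were expressed in these mice: Stat5a was at 29 and 30.3 CPM in DMEM and 44.6 and 38.9 CPM in 4T1 CM (log2 fold change 0.49 ± 0.12, SE, adjusted p = 0.00203, a call lost without mouse 112 at 0.36, without mouse 113 at 0.62 and under scaling by totals at 0.36), and Stat5b at 65.6 and 69.7 CPM and 67.5 and 77.7 CPM (0.10 ± 0.10, adjusted p = 0.411). In DMEM the cKO libraries held 0.0919, 0.087 and 0 CPM of Stat5a and 0.0459, 0 and 0.0823 CPM of Stat5b.

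4T1 CM changed the level of 5142 genes, 39.5% of those tested, at an adjusted p under 0.01 (edgeR quasi-likelihood test with mouse as a block, Benjamini-Hochberg adjustment over all genes tested). Of these, 2656 rose (20.4%) and 2486 fell (19.1%). The rises were larger: 952 genes rose and 602 fell by at least 2-fold, 387 rose and 105 fell by at least 4-fold, and 98 rose and 4 fell by at least 16-fold. Both mice moved the same way for 5141 of the 5142 called genes. The exception was mt-Atp8, a mitochondrial gene, which was at 118 and 1.18 CPM in DMEM and 1.65 and 1.96 CPM in 4T1 CM, so that its call rested on 1 DMEM library. Without mouse 113 the count of changed genes was 2990, and without mouse 112 it was 3542, the remaining mouse being assumed to vary like the other groups. Both 4T1 CM libraries lay above both DMEM libraries for 4928 genes (37.9%) and below for 4716 (36.3%), and the median log2 fold change of all genes was 0.014. These values are relative to the total of each library after scaling by the median ratio of genes (RLE). Scaled by library totals alone, the median gene fell by 0.14 on the log2 scale relative to this, and the calls split into 1876 higher and 3517 lower, so the direction of small changes depends on the scaling.

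**Figure D1:**
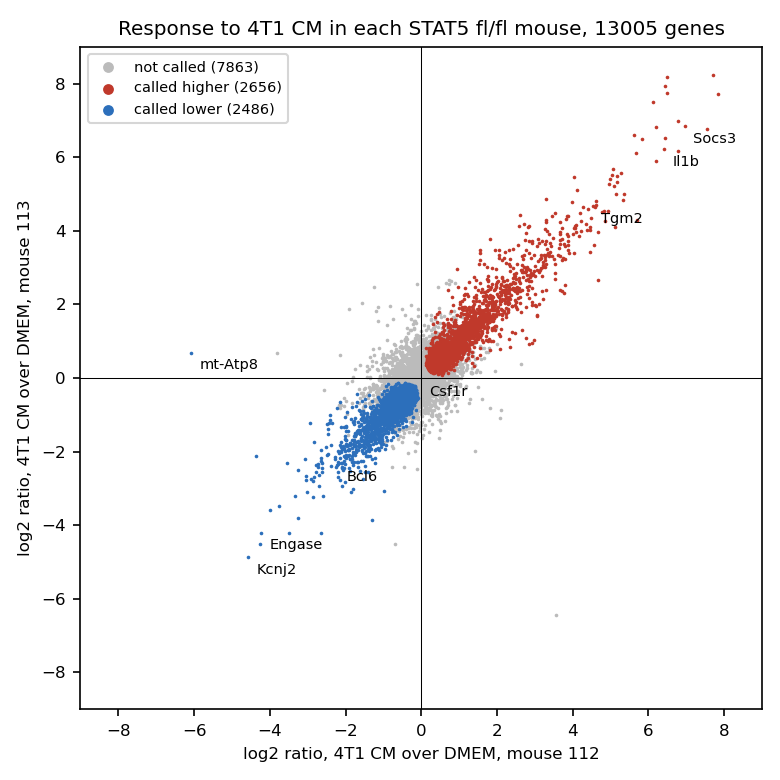
Each point is 1 of the 13005 genes tested, placed by its log2 ratio of 4T1 CM over DMEM in mouse 112 (x axis) and in mouse 113 (y axis), colored by its call at an adjusted p under 0.01. The called genes lie in the upper right (2656 higher) and lower left (2486 lower), apart from mt-Atp8 at the far left.

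The largest rises included scavenger and adhesion receptors, STAT feedback inhibitors and chemokines. Olr1 (LOX-1, a receptor for oxidized lipoprotein, chr6:129485244-129507165 in GRCm38) went from 1 and 0 counts in DMEM to 606 and 564 counts in 4T1 CM, and Selp (P-selectin, an adhesion receptor for leukocytes, chr1:164115264-164150026) from 0 and 1 to 452 and 560 counts. Both genes were thus nearly silent in DMEM, with no overlap of the groups. With so few starting counts the ratios are known only loosely: the ratio was 1339 for Olr1, with a 95% counting interval of 239.9 to 52944, and 1158 for Selp, with an interval of 207 to 45800, and both intervals cover counting error only. Trem1, a receptor that amplifies inflammatory signals in myeloid cells, rose from 0.273 and 0 CPM to 33.2 and 27.9 CPM, a ratio of 234 (interval 107 to 638). Gja1, the gap junction protein connexin 43, was at 0.227 and 0.463 CPM in DMEM and 60.1 and 61 CPM in 4T1 CM (log2 fold change 7.41 ± 0.24, adjusted p = 5.21e-14). For a gene this low in DMEM the SE is smaller than counting error alone would give.

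Vdr, the vitamin D receptor, was at 0.546 and 0.337 CPM in DMEM and 36.6 and 38.7 CPM in 4T1 CM. Adora2b, the low-affinity adenosine receptor that raises cyclic AMP, stood at 0.909 and 1.26 CPM in DMEM and 73.8 and 80.9 CPM in 4T1 CM, a 70.5-fold difference. In all 15 genes with the largest rise the groups did not overlap, as the naming rule required. Rab44 rose 75.8-fold, Abtb2 49.9-fold, and Gcnt2, an enzyme that branches the sugar chains of glycoproteins, 63.8-fold (log2 fold change 5.99 ± 0.14). Tgm2, the crosslinking enzyme transglutaminase 2, was outside these 15 and rose 24.3-fold: it was at 162 and 146 CPM in DMEM and 3726 and 3734 CPM in 4T1 CM (log2 fold change 4.61 ± 0.078, adjusted p = 2.09e-17).

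**Figure D2:**
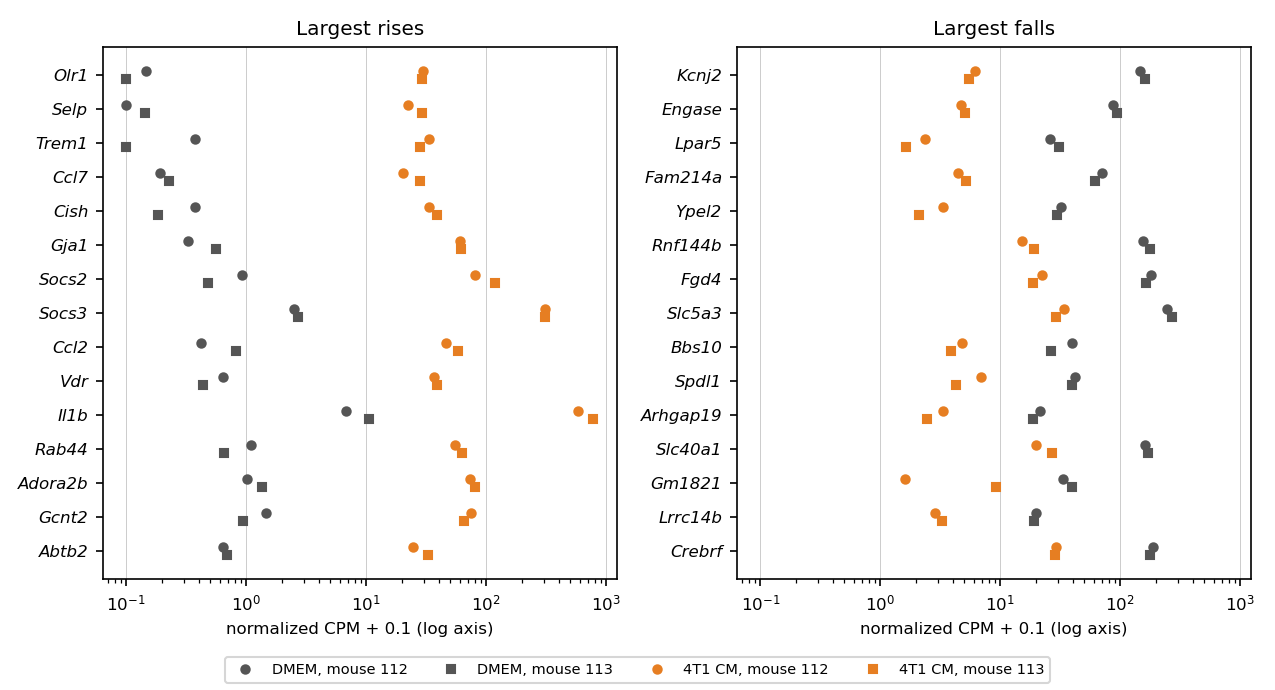
Normalized CPM plus 0.1, on a log axis, of the 15 genes with the largest rise (left) and the 15 with the largest fall (right) among called genes with a mean of at least 10 CPM over the 4 libraries and groups that did not overlap. Circles are mouse 112, squares mouse 113, gray DMEM and orange 4T1 CM: the colors separate in every row, and the gaps on the log axis are wider for the rises.

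The largest fall was that of Kcnj2, an inward rectifier potassium channel (chr11:111066164-111076821), from 145 and 161 CPM in DMEM to 6.03 and 5.42 CPM in 4T1 CM. It was 26.6-fold lower (log2 fold change -4.73 ± 0.10, adjusted p = 1.74e-16), in both mice alike. Engase, a cytosolic enzyme that trims free N-glycans, went from 87.6 and 93.7 CPM to 4.57 and 5 CPM. Slc40a1, the iron exporter ferroportin, was at 161 and 169.5 CPM in DMEM and 19.6 and 26.8 CPM in 4T1 CM, and Slc5a3, the sodium/myo-inositol cotransporter, at 246 and 271 CPM and 33.9 and 28.8 CPM. Both transporters fell in each mouse, and their groups were far apart. Lpar5, a lysophosphatidic acid receptor, fell by 3.89 on the log2 scale, and Crebrf, a regulator of CREB3 proteins, fell by 2.66. The remaining falls were in Fam214a (-3.82), Ypel2 (-3.54), the ubiquitin ligase Rnf144b (-3.28), the Cdc42 exchange factor Fgd4 (-3.07), Bbs10 (-2.94), the mitotic adaptor Spdl1 (-2.90), Arhgap19 (-2.84) and Lrrc14b (-2.70). Gm1821, a predicted gene, was at 33.2 and 39.7 CPM in DMEM and at 1.51 and 9.03 CPM in 4T1 CM, a spread between the 2 mice far wider than for the others. Genes that fell at least 2-fold had a median span of 26757.5 bp from first to last exon. It was 19598.5 bp for those that rose at least 2-fold and 19795 bp for all tested. Genes that fell under 2-fold had a longer median span, 36417 bp, and those that rose under 2-fold and those not called had 17435 and 16819 bp.

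Of 12 listed STAT5-induced genes tested, 11 rose (91.7%) and 0 fell, with a median log2 fold change of 2.75. Among all genes tested 20.4% rose and 19.1% fell, and the counts of this and later lists are to be read against these shares. In cKO macrophages, which lack Stat5a and Stat5b, the median of the STAT5-induced list was 2.26. Of its 12 genes, 4 differed in response between genotypes, against 295 of all 13005 genes (2.27%). Socs3, which blocks JAK kinases bound to gp130-type receptors (ENSMUSG00000053113, chr11:117966079-117970047), was at 2.41 and 2.61 CPM in DMEM and 310.4 and 311 CPM in 4T1 CM. The 2 mice gave nearly equal levels, and the fold was 123 (log2 fold change 6.95 ± 0.10, adjusted p = 4.37e-18). Counting error alone would be larger than this SE. Cish, the inhibitor that STAT5 induces most directly (ENSMUSG00000032578, chr9:107296026-107302784), rose from 6 and 2 counts to 679 and 749 counts, a ratio of 204 (95% counting interval 103 to 474). Socs2, a relative that restrains growth hormone signals, rose from 0.818 and 0.379 CPM to 79.9 and 117 CPM. The chemokine Ccl17, with 0 counts in both DMEM libraries and 77 and 51 counts in 4T1 CM, was at least 24.3-fold higher, against a floor of 3 counts per library. Cyclin D2 (Ccnd2) rose 12.9-fold, the cell cycle inhibitor p21 (Cdkn1a) 6.27-fold, oncostatin M (Osm) 7.22-fold, the kinase Pim1 4.1-fold and the survival protein Bcl-xL (Bcl2l1) 2.37-fold. Pim2 was the exception, at 2.27 and 1.6 CPM in DMEM and 2.33 and 1.81 CPM in 4T1 CM.

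The start regions of a few of these genes are shown to make the letters that the pathways' factors read visible. The sequences are from RefSeq promoter windows on build GRCm38.p6, read 5′ to 3′ on the gene's strand. Capitals mark the STAT motif TTCNNNGAA and the CREB core TGACGT, searched on both strands. In Cish (chr9:107296549-107296678, plus strand) STAT motifs began 0 and 11 bases after the start site and a CREB core, on the other strand, 98 bases before it. In Socs3 (chr11:117969412-117969531, minus strand) a STAT motif began 154 bases before the start site and no CREB core was marked.
Cish: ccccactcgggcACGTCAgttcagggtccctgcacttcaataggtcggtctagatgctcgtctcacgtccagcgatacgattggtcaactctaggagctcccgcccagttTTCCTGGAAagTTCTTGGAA
Socs3: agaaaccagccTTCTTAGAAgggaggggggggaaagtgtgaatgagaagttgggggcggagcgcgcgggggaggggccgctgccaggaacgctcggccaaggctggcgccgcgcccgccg
A STAT motif occurred in 6.85% of the 11935 windows of tested genes, in 9.2% of the 848 windows of genes that rose at least 2-fold and in 8.63% of the 591 windows of genes that fell at least 2-fold. A window was found for 11 of the 15 largest rises; Socs2, Ccl2, Ccl7 and Rab44 had none.

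Immediate early transcription factors, which are transcribed without new protein synthesis, mostly rose. Of 26 tested, 23 rose (88.5%, against 20.4% of all genes tested) and 3 fell (11.5%, against 19.1%), with a median log2 fold change of 1.77. The nuclear receptor Nr4a1 was at 3.27 and 1.6 CPM in DMEM and 55.1 and 75.5 CPM in 4T1 CM, and Fosl2, an AP-1 subunit, at 36.3 and 36.7 CPM and 615 and 662 CPM. The groups of both genes were far apart, and for Fosl2 the pairs were tight (log2 fold change 4.13 ± 0.092, adjusted p = 4.92e-16). Myc, the growth-regulating transcription factor, rose 13.6-fold from 7.59 and 8.89 CPM to 112 and 111 CPM. Fos rose 6.98-fold, Ier3 15.3-fold, Nr4a2 12.4-fold, Nr4a3 9.83-fold and Fosb 6.01-fold, whereas Egr1 rose by 1.74 ± 0.16 on the log2 scale and Jun by 0.46 ± 0.085. The 3 members that fell were Atf3, a stress-induced repressor, from 449.5 and 413 CPM to 103 and 101 CPM (-2.08 ± 0.086), the small Maf protein Mafk (-0.75 ± 0.093) and Klf6 (-0.23 ± 0.067). Scaled by library totals, 22 of the 26 rose and 3 fell.

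The inhibitors that the MAPK cascade induces against itself rose in 11 of 14 cases (78.6%, against 20.4% of all genes) and fell in 1 (7.14%, against 19.1%). Their median log2 fold change was 1.83. Dusp5, a nuclear phosphatase of ERK, was at 2.09 and 2.32 CPM in DMEM and 53.8 and 68.3 CPM in 4T1 CM. Errfi1, which inhibits the EGF receptor, was at 8.78 and 8.89 CPM and 270.5 and 209.9 CPM, a fold of 27 (adjusted p = 4.92e-16). Dusp6, the cytoplasmic ERK phosphatase, followed at 9.18-fold, Dusp1 at 6.79-fold, Spred2 at 5.69-fold and Spred1 at 5.33-fold. Dusp8, which acts on JNK and p38, fell by 0.73 ± 0.21 on the log2 scale from 4.37 and 3.29 CPM, a call lost without either mouse (adjusted p = 0.125 without mouse 112 and 0.0618 without mouse 113), and Dusp2 and Dusp10 did not pass the test (0.51 and 0.34).
The windows of the leading pair are given for the start site elements of this pathway: capitals mark the CArG box, which binds SRF, and the CREB core in Dusp5 (chr19:53529035-53529144, plus strand), and the full CREB site TGACGTCA in Errfi1 (chr4:150854960-150855069, plus strand).
Dusp5: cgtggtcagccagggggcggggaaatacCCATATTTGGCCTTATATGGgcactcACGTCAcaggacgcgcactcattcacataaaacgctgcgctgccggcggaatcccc
Errfi1: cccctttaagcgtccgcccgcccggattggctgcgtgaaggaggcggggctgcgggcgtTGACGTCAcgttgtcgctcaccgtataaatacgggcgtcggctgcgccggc
In Dusp5 the CArG boxes began 82 and 72 bases before the start site and the CREB core 56 bases before it, and in Errfi1 the CREB site began 51 bases before the start. CArG boxes were found in 1.89% of the windows of genes that rose at least 2-fold, 0.846% of those that fell and 1.2% of all tested, and the full CREB site in 3.42%, 2.2% and 3.04%.

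Genes that respond to CREB and cyclic AMP rose as well: 14 of 18 rose (77.8%, against 20.4% of all genes) and 1 fell (5.56%, against 19.1%). Their median log2 fold change was 2.55. This list shares members with the immediate early list, so the counts of these lists overlap. The largest rise was 4.745 on the log2 scale in both lists. Pde4d, a phosphodiesterase that degrades cyclic AMP, rose from 2.86 and 2.57 CPM to 50.2 and 41.7 CPM (4.07 ± 0.18). Thbs1, the matrix glycoprotein thrombospondin 1, was at 31.6 and 26.1 CPM in DMEM and 421 and 361 CPM in 4T1 CM. Both rose more than 10-fold with separate groups. Cebpb, a factor of inflammatory gene programs, rose 6.51-fold, Crem, a CREB-family factor with repressor forms, 6.45-fold, the kinase Sik1 9.39-fold and Pde4b 5.73-fold.

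NF-kB genes rose in number but by small amounts. Of 23 subunits and targets, 17 rose (73.9%, against 20.4% of all genes) and 1 fell (4.35%, against 19.1%), and the median log2 fold change was 0.77. The coactivator Bcl3 led with 16.6 and 16.3 CPM in DMEM and 91.8 and 97.6 CPM in 4T1 CM (2.53 ± 0.087). Nfkbia, the IkB protein that ends the response, was at 77.8 and 85.2 CPM and 167 and 170.3 CPM (log2 fold change 1.05 ± 0.087), and the ubiquitin editor Tnfaip3 (A20) was at 44.6 and 47.6 CPM and 84.3 and 90.1 CPM. The groups of both genes were separate, with folds of 2.07 and 1.89 against 123 for Socs3. The subunit genes Rel and Rela did not pass the test (-0.067 and 0.23), and Tnfaip2, a TNF-induced gene, fell by 0.42 ± 0.08. Scaled by library totals, 15 of the 23 rose.
The NF-kB motif (capitals; GGGA, any 2 bases, TTCC) is shown in the start region of Nfkbia (chr12:55492648-55492767, minus strand), where it began 29 bases before the start site, and in the chemokine gene Cxcl2 (chr5:90903779-90903898, plus strand), where overlapping matches on both strands began 97 and 96 bases before it.
Nfkbia: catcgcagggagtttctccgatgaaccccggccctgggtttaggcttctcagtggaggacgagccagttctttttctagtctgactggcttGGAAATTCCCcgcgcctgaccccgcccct
Cxcl2: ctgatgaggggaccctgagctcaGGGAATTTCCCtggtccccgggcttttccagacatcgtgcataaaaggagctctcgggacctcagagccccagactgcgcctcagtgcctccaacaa
The motif was in 1.65% of windows of genes that rose at least 2-fold, 0.677% of those that fell that much and 1.61% of all tested.

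Chemokines rose in 17 of 20 cases (85%, against 20.4% of all genes) and fell in 1 (5%, against 19.1%). Their median log2 fold change was 2.06 (2.03 with genes near 0 in DMEM set to their lower bound). Among the monocyte attractants, Ccl2 (chr11:82035571-82037453) was at 0.318 and 0.716 CPM in DMEM and 45.9 and 58.3 CPM in 4T1 CM, and its neighbor Ccl7 (chr11:82045712-82047525) went from 2 and 3 counts to 418 and 544 counts, a ratio of 220.2 (interval 94 to 679.8). Both were under 1 CPM in DMEM. Cxcl14, which was already present in DMEM at 70.5 and 73.1 CPM, reached 353 and 387 CPM, Ccl9 went from 381 and 397 CPM to 841 and 969 CPM, and the neutrophil attractants Cxcl2 and Cxcl1 rose 6.19-fold and 4.72-fold to no more than 20.6 and 6.57 CPM. The member called lower was Ccl3 (MIP-1 alpha), from 43.7 and 47.7 CPM to 13.7 and 9.65 CPM (log2 fold change -1.96 ± 0.13, adjusted p = 8.15e-10), and Ccl4 and Ccl5 did not pass (-0.41 ± 0.14 and 0.85 ± 1.05).

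Among cytokines, 9 of 13 rose (69.2%, against 20.4% of all genes) and 0 were called lower (against 19.1%), with a median log2 fold change of 1.09. Il1b was at 6.73 and 10.4 CPM in DMEM and 582 and 781 CPM in 4T1 CM, 79.8-fold (6.32 ± 0.18, adjusted p = 8.22e-15). Its receptor antagonist Il1rn rose with it, from 27.4 and 20.6 CPM to 557 and 379 CPM, and Il1a from 0.227 and 0.59 CPM to 7 and 7.27 CPM. For each of the 3 IL-1 family genes both 4T1 CM libraries lay above both DMEM libraries. Tnf moved far less, from 15.6 and 17.4 CPM to 35.6 and 29.8 CPM (0.98 ± 0.13), Csf1 rose 2.6-fold and Tgfb1 1.56-fold, and Il10 was at 0.136 and 0.337 CPM and 0.292 and 0.722 CPM with no call. Both lists of activation markers rose: 9 of 11 classical markers rose (81.8%) and 0 fell (median 1.66), and 9 of 13 alternative markers rose (69.2%) and 1 fell (7.69%, median 1.48). Ptgs2 (cyclooxygenase 2) rose 14-fold and the costimulatory ligands Cd86 and Cd80 7.31-fold and 7.34-fold, while Nos2 was at 0 and 0.0843 CPM and 0.146 and 0.103 CPM with no call. Arg1, with 0 counts in DMEM and 52 and 41 counts in 4T1 CM, was at least 17.7-fold higher, Mrc1 (CD206) rose 1.8-fold, and Irf4, a factor of alternative activation, fell from 21.8 and 22.9 CPM to 6.27 and 6.45 CPM. Lists drawn up with earlier results of these samples known, as these were, are no independent evidence of direction.

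Of 19 growth and angiogenic factors tested, 8 rose, 42.1% against 20.4% of all genes tested. Another 4 fell, 21.1%, near the 19.1% of all genes. The median log2 fold change was 0.18 against 0.014 for all genes. Vegfa, the main endothelial growth factor, was at 27.3 and 20.9 CPM in DMEM and 217 and 212 CPM in 4T1 CM (log2 fold change 3.16 ± 0.10, adjusted p = 2.58e-14). Pdgfa, a mitogen of mesenchymal cells, was at 32.8 and 31 CPM and 199 and 195 CPM. Each rose more than 6-fold with no overlap. Fgf2, with 0 counts in both DMEM libraries, had 169 and 171 counts in 4T1 CM and was at least 64.8-fold higher, Hbegf rose 15.2-fold and Pgf 23.8-fold. The members that fell were Bmp2, from 8.55 and 9.73 CPM to 1.22 and 1.75 CPM, Igf1 (-0.47), Vegfb (-0.50) and the VEGF coreceptor Nrp1 (-0.71).

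Matrix and protease genes rose in 16 of 27 cases (59.3%, against 20.4% of all genes) and fell in 1 (3.7%, against 19.1%), with a median of 0.91. Timp1, an inhibitor of metalloproteinases, was at 0.318 and 0.379 CPM in DMEM and 11.6 and 11 CPM in 4T1 CM. The urokinase receptor Plaur went from 40.6 and 45.8 CPM to 283 and 257 CPM. The groups of both genes were far apart. Among the proteases, Mmp14 rose 6.56-fold, Mmp19 4.75-fold, Adam8 3.34-fold, Plau 2.31-fold and Mmp13 1.73-fold, while Mmp9 and Mmp12 did not pass the test (0.59 and 0.29). Tgfbi, a TGF-beta-induced adhesion protein outside this list, rose from 85.6 and 97.4 CPM to 1422 and 1710 CPM. Adamts1 was the member that fell (-1.39 ± 0.17).

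Of 30 cytokine and chemokine receptor genes 19 were higher, 63.3% against 20.4% of all genes tested, and 5 lower, 16.7% against 19.1%. Ccr1, which binds Ccl7 among other ligands, was at 3.59 and 3.2 CPM in DMEM and 126 and 122 CPM in 4T1 CM (log2 fold change 5.19 ± 0.10, adjusted p = 9.2e-17). Il4ra, the shared chain of the IL-4 and IL-13 receptors, rose from 53.9 and 55.8 CPM to 886 and 943 CPM, and Il17ra from 32.9 and 29.5 CPM to 315 and 298 CPM. For all 3 the pairs of libraries were tight and far apart. The GM-CSF receptor chains rose too, Csf2rb from 617 and 617 CPM to 1896 and 1898 CPM, Csf2rb2 1.83-fold and Csf2ra 1.41-fold, while Csf1r did not pass (-0.019 ± 0.062). Csf2rb and Csf2rb2 are near-identical copies, so reads can be assigned to one or the other with less certainty. The members that fell were Ccrl2 (-0.76), Csf3r (-0.51), the LIF receptor Lifr (-0.52), Cxcr4 (-0.51) and Il6st (-0.27).

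Of 28 pattern recognition receptors and adaptors 13 were higher, 46.4%, and 5 lower, 17.9%, the latter near the 19.1% of all genes. Rises were found in Tlr5, the flagellin receptor, from 0.637 and 0.421 CPM to 10.2 and 10.3 CPM, Nlrp3, the inflammasome sensor, from 51.5 and 51 CPM to 217 and 221 CPM, and Cd14, the LPS coreceptor, from 799.8 and 903 CPM to 2657 and 2383 CPM. Tlr7, a receptor of single-stranded RNA, was at 444 and 426 CPM in DMEM and 113 and 100.3 CPM in 4T1 CM (-2.03 ± 0.083), and Tlr9, a receptor of unmethylated DNA, at 86.9 and 98.9 CPM and 23.4 and 29.1 CPM (-1.82 ± 0.079), and the groups of both were far apart. The adaptors Ticam1 (-0.57) and Ticam2 (-0.35) and the LPS coreceptor Ly96 (-0.46) were the other members that fell. Of scavenging, efferocytosis and complement genes, 12 of 22 rose (54.5%, against 20.4% of all genes) and 1 fell (4.55%). The scavenger receptor Msr1 rose 4.64-fold, the anaphylatoxin receptor C5ar1 3.26-fold, Cd36 2.02-fold and Mertk, a receptor for dying cells, 1.96-fold. Gas6, a Mertk ligand, fell by 0.38 ± 0.063. In the prostaglandin pathway 7 of 16 rose (43.8%), led by Ptgs2 and the receptor Ptger2 (6.3-fold), and 3 fell, 18.8%, near the 19.1% of all genes. Those 3 were the prostaglandin D synthase Hpgds (-1.01 ± 0.067), the degrading enzyme Hpgd (-1.05 ± 0.10) and the receptor Ptger3 (-1.59 ± 0.35).

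Lineage transcription factors were moved in both directions, with 12 of 28 higher (42.9%, against 20.4% of all genes) and 8 lower (28.6%, against 19.1%). Runx3, a factor of dendritic and lymphoid cells, was at 3.73 and 2.11 CPM in DMEM and 56.1 and 46.5 CPM in 4T1 CM. Maf, a leucine zipper factor of macrophages, fell from 248 and 275 CPM to 105 and 116 CPM. The groups of neither gene overlapped. Rara, a retinoic acid receptor, rose 4.73-fold, and Irf4, Spic (-1.59 ± 0.43), Pparg (-1.48 ± 0.10), Zeb2 (-1.36 ± 0.11), Rxra (-0.82 ± 0.10), Bhlhe41 (-0.82 ± 0.10) and Mitf (-0.61 ± 0.091) fell, while Spi1 (PU.1), the master factor of the lineage, was at 329.6 and 350.01 CPM and 361 and 339.7 CPM with no call. The median of this list was 0.076, and it turned to -0.06 when libraries were scaled by totals.

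Interferon-stimulated genes rose modestly: 17 of 34 were higher (50%, against 20.4% of all genes) and 1 lower (2.94%, against 19.1%), with a median log2 fold change of 0.38. Zbp1, Dhx58, Trim30a and Mx2 rose 2-fold or slightly more (1.08 to 1.22 on the log2 scale), and Ifit2 fell (-0.59 ± 0.11). With scaling by totals, 10 of the 34 were higher and 3 were lower, against 1876 and 3517 of all 13005 genes. Of 8 MHC class II genes 7 rose (87.5%) and 1 fell (12.5%), and scaled by totals 4 rose and 1 fell. H2-Aa was at 272 and 154 CPM in DMEM and 346 and 235 CPM in 4T1 CM, and Cd74 at 1449 and 994 CPM and 1816 and 1309 CPM. Mouse 112 was higher than mouse 113 in either medium, so the groups of both genes overlapped, and fitted without the mouse block neither passed (adjusted p = 0.18 for H2-Aa and 0.202 for Cd74). Ciita, the class II transactivator, fell from 66.1 and 40.7 CPM to 28.3 and 20.7 CPM, also with mouse 112 higher in both media.

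Genes of sugar use and sterol synthesis mostly rose. Of 20 glycolysis genes 15 rose (75%, against 20.4% of all genes) and 2 fell (10%, against 19.1%), with a median of 0.45. Scaled by library totals, 11 rose and 2 fell. The glucose transporter Slc2a1 (GLUT1) was at 32.3 and 36.3 CPM in DMEM and 241 and 263 CPM in 4T1 CM (log2 fold change 2.88 ± 0.068, adjusted p = 9.03e-16), hexokinase 2 (Hk2) at 53.9 and 53.9 CPM and 172 and 144 CPM, and the lactate exporter Slc16a3 at 26.2 and 24.9 CPM and 69.99 and 68.6 CPM. The groups of all 3 were separate. Lactate dehydrogenase Ldha rose by 0.98 ± 0.078 and pyruvate kinase Pkm by 0.44 ± 0.079, and the phosphofructokinase genes Pfkl (-0.42 ± 0.11) and Pfkm (-0.56 ± 0.11) fell. Gapdh was at only 20.5 and 19.8 CPM in DMEM, and since it has many processed pseudogenes and reads of low mapping quality were not counted, its level is uncertain. HIF targets rose in 9 of 18 cases (50%), and 2 fell (11.1%): Kdm3a (-0.94 ± 0.078) and Bnip3 (-0.42 ± 0.11), with Vegfa and Slc2a1 the largest rises. Scaled by library totals, 7 HIF targets rose and 3 fell, against 1876 and 3517 of all 13005 genes.

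Cholesterol synthesis and uptake gave 16 rises (72.7%, against 20.4% of all genes) and 0 falls (against 19.1%) among 22 genes, with a median log2 fold change of 0.90. Cyp51, a demethylase of sterol synthesis, was at 24.2 and 26.8 CPM in DMEM and 107 and 87.3 CPM in 4T1 CM, and Idi1, an isomerase of the mevalonate pathway, at 2.41 and 3.12 CPM and 11.6 and 10.1 CPM. Both rose in both mice, more in mouse 112 than in mouse 113. There were 6 members that did not pass. LXR targets, the export side of sterol handling, rose in 6 of 12 cases (50%) and fell in 1 (8.33%). The desaturase Scd2 went from 37.8 and 40.03 CPM to 345 and 275 CPM and the exporter Abca1 from 410.5 and 395 CPM to 866 and 869 CPM, while the exporter Abcg1 fell (-0.48 ± 0.083). Scaled by totals the counts were 15 higher and 1 lower for cholesterol genes and 5 and 1 for LXR targets.

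Other programs held smaller shares of called genes or were more evenly split. Of 34 nuclear genes of the respiratory chain 10 rose (29.4%, against 20.4% of all genes) and 0 fell (against 19.1%), with a largest step of 0.72 in Uqcrq. Scaled by totals, 5 rose and 1 fell. Cell cycle genes were mostly uncalled (4 higher and 4 lower of 34, 11.8% each, under the shares of all genes), with the spindle factor Tpx2 the largest rise (3.89-fold). Ribosome biogenesis genes gave 17 rises (32.7%), led by Heatr1 (3.31-fold), and 8 falls (15.4%, under the 19.1% of all genes) among 52. The counts became 11 and 11 when scaled by totals, where 1876 of all 13005 genes rose and 3517 fell. NRF2 genes rose in 9 of 20 cases (45%), as with the cystine transporter Slc7a11 (4.61-fold). They fell in 2 (10%), among them the heme oxygenase Hmox1 (-0.52 ± 0.073), and scaled by totals 6 rose and 4 fell. ATF4 stress genes gave 4 rises (22.2%) and 3 falls (16.7%) among 18, both near the shares of all genes (20.4% and 19.1%), with Ddit3 (CHOP) lower (-0.60 ± 0.10). Of 27 lysosome and autophagy genes 7 were lower, 25.9% against 19.1% of all genes, and 2 higher, and their median log2 fold change was 0.037, against 0.014 over all genes. Among the lower ones, Tfeb, the master factor of lysosomal genes, was at 85.1 and 91.5 CPM in DMEM and 34.2 and 39.98 CPM in 4T1 CM, and the autophagy kinase Ulk1 at 97.5 and 94.6 CPM and 32 and 33.1 CPM. Of 15 mRNA decay regulators 5 rose and 5 fell, 33.3% each, against 20.4% and 19.1% of all genes. The AU-rich element binder Zfp36 rose from 89.6 and 94.3 CPM to 411 and 475 CPM, the nuclease Zc3h12a 3.88-fold and the antiproliferative Btg1 7.14-fold, while the related adaptors Tob1 and Tob2 fell (-1.07 ± 0.16 and -0.79 ± 0.081). Of 23 genes that the study's text names, which were chosen there with these samples, 13 rose (56.5%) and 2 fell (8.7%), the latter being Ciita and Bcl6.

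**Figure D3:**
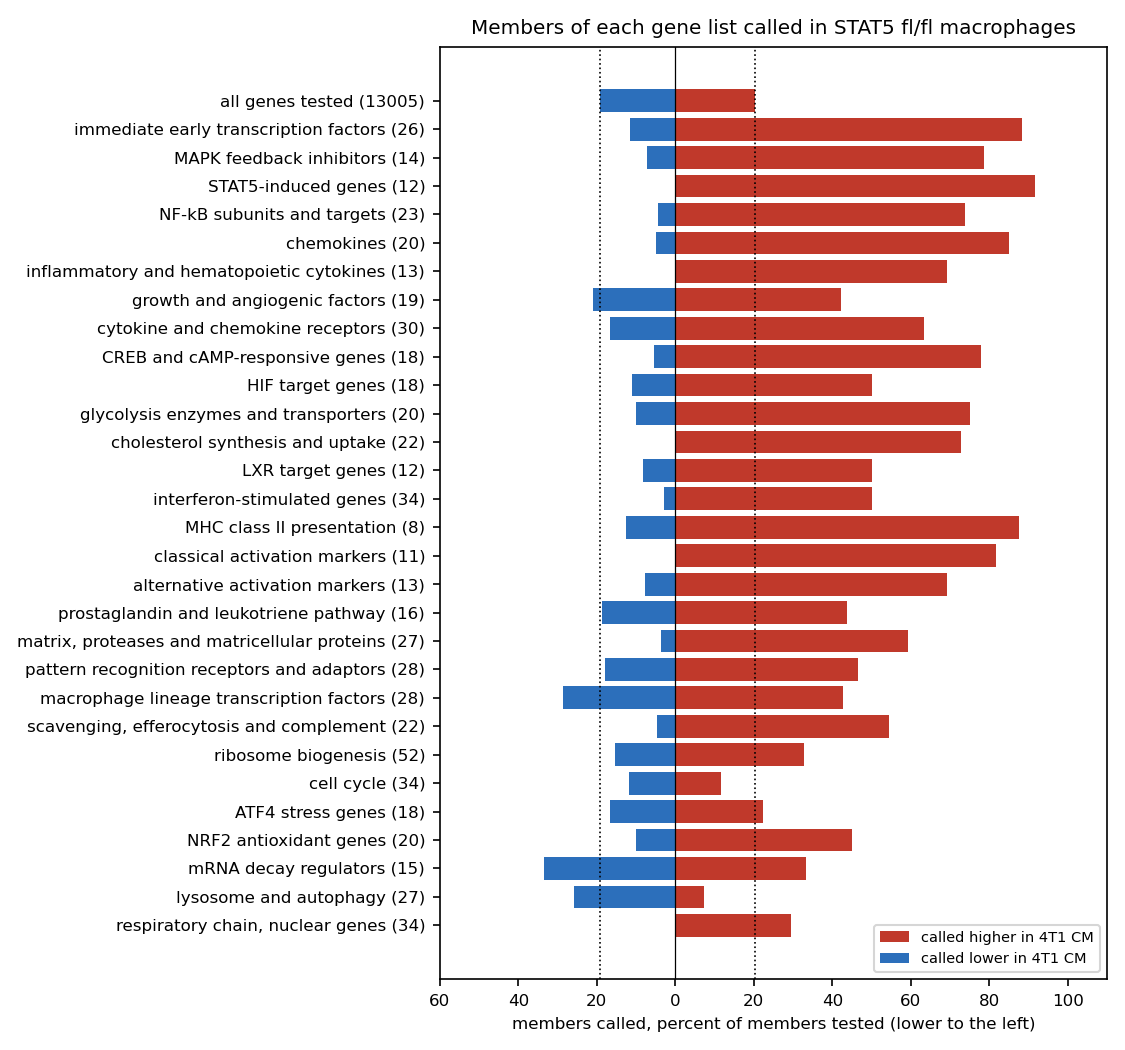
For each gene list, the percentage of tested members (number in brackets) called higher in 4T1 CM (right, red) and lower (left, blue); dotted lines mark the shares among all 13005 genes, 20.4% and 19.1%. The signaling lists at the top lie mostly to the right, the cell cycle and lysosome lists near or left of the dotted lines.

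To ask how the response to the mixture differed from that to one defined cytokine, 4T1 CM was compared directly with rmGM-CSF in the same 2 mice. At an adjusted p under 0.01, 4297 genes differed (33% of 13005), 1965 higher (15.1%) and 2332 lower (17.9%) in 4T1 CM. Against DMEM, rmGM-CSF itself changed 4014 genes (30.9%). In the NF-kB list 23 of 23 members were lower in 4T1 CM than in rmGM-CSF and 0 higher. Icam1 was at 82 and 71.7 CPM in DMEM, 116 and 121 CPM in 4T1 CM and 889 and 902 CPM in rmGM-CSF, and Tnf at 15.6 and 17.4, 35.6 and 29.8 and 632 and 658 CPM (4T1 CM against rmGM-CSF -4.30 ± 0.12, adjusted p = 3.99e-14). For both genes the rmGM-CSF libraries were far above the others. Of the chemokines, 15 of 20 were lower and 2 higher in 4T1 CM than in rmGM-CSF. Ccl3 moved in opposite directions, with 43.7 and 47.7 CPM in DMEM, 13.7 and 9.65 CPM in 4T1 CM and 460.4 and 534 CPM in rmGM-CSF, as did the exchange factor Rasgef1b at 201 and 197, 52.8 and 50.7 and 647 and 665 CPM. Ptafr, the receptor for platelet-activating factor, stood at 719.6 and 659.8 CPM in DMEM, 179 and 148 CPM in 4T1 CM and 1199 and 1150 CPM in rmGM-CSF, and Fnbp1l, a regulator of membrane bending, was lower in 4T1 CM than in rmGM-CSF by the direct test (log2 fold change -2.37 ± 0.07).

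In the CREB list the balance was reversed, 13 of 18 higher and 4 lower than in rmGM-CSF, and its median log2 fold change against DMEM was 2.55 with 4T1 CM and 0.085 with rmGM-CSF. Nr4a1 was at 3.27 and 1.6 CPM in DMEM, 55.1 and 75.5 CPM in 4T1 CM and 1.87 and 1.5 CPM in rmGM-CSF. Thbs1 was at 31.6 and 26.1, 421 and 361 and 19.2 and 13.4 CPM in the same order, and Vegfa at 27.3 and 20.9, 217 and 212 and 20.05 and 16.3 CPM. For Thbs1 and Vegfa both rmGM-CSF libraries lay below both DMEM libraries, and for Nr4a1 they overlapped them. The direct contrasts with the smallest p-values among genes higher in 4T1 CM were Tgm2 (2.98 ± 0.072), Tgfbi (3.50 ± 0.085), Gcnt2 (4.81 ± 0.13), Sipa1l2 (3.12 ± 0.088) and Ctla2a (4.92 ± 0.14), with adjusted p of 6.54e-15 for Tgm2. The STAT feedback genes were high in both: Socs3 had 310.4 and 311 CPM in 4T1 CM and 680.1 and 653 CPM in rmGM-CSF, and Cish 33 and 38.6 CPM and 149.6 and 146 CPM, whereas Socs2 was higher in 4T1 CM, with 79.9 and 117 CPM against 28.8 and 28.4 CPM. Without mouse 113 the count of genes that differed between the stimuli was 1971, again with the remaining mouse assumed to vary like the other groups. Both stimuli share the DMEM libraries, and what the conditioned medium contained was not measured here. The paper reports GM-CSF among the factors that these tumor cells secrete, so the defined cytokine is also a reported part of the mixture. How much of the response to the mixture came from GM-CSF was not tested.

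**Figure D4:**
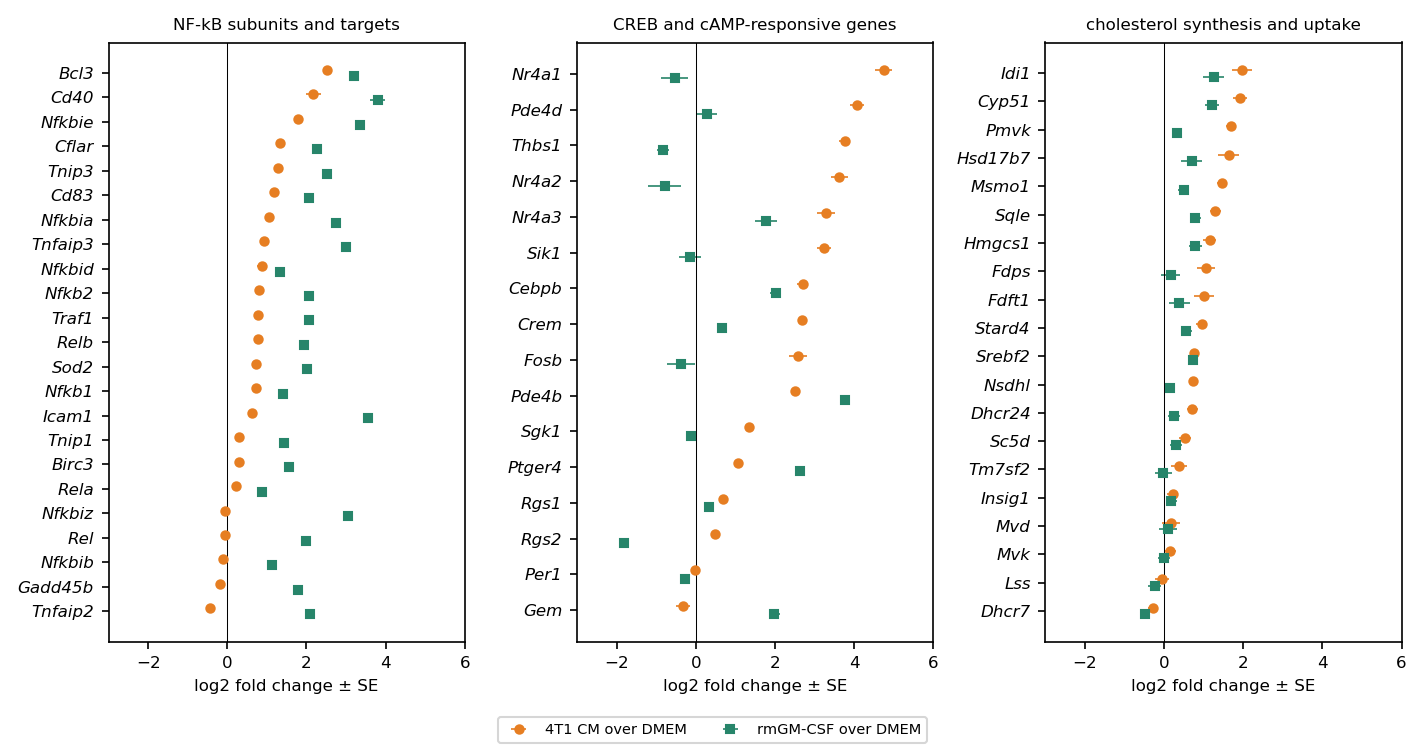
Log2 fold change (x axis, with SE) against DMEM in STAT5 fl/fl macrophages for 4T1 CM (orange circles) and rmGM-CSF (green squares), for the members of 3 lists; Il10 is left out of the middle list because it was near 0, and a few other members of the lists are not shown. In the NF-kB list each square lies right of its circle, in the CREB list most circles lie to the right of the squares, and of the whole cholesterol list 8 were higher with 4T1 CM and 0 lower by the direct test.

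The cKO mice, which share no library with the fl/fl contrast, gave a further look at the same stimulus. All libraries of the series entered the same fit, which estimated their spread jointly. The calls in cKO and fl/fl are therefore not independent. In their 3 mice 2643 genes rose and 2487 fell at the same threshold. Of the genes that rose in fl/fl, 77.6% rose in cKO, and of those that rose in cKO, 78.0% rose in fl/fl, while for falls the shares were 78.9% and 78.9%. Opposite calls were found for 14 genes. The difference between genotypes was itself tested: 295 genes passed (2.27%), 168 with a higher value in cKO (1.29%) and 127 with a lower one (0.977%). The other genes did not pass this test, which does not show that they responded alike.

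Of the STAT feedback genes, Cish and Socs2 passed the test of the difference. Cish was at 0.184, 0.217 and 0.206 CPM in DMEM and 2.08, 1.98 and 2.04 CPM in 4T1 CM in the 3 cKO mice, against 0.273 and 0.0843 and 33 and 38.6 CPM in the 2 fl/fl mice, a difference of -4.34 ± 0.60 on the log2 scale (adjusted p = 0.00029). Socs2 rose by 4.23 ± 0.20 in cKO and 7.35 ± 0.23 in fl/fl (adjusted p of the difference 0.000304), and both genes therefore still rose in cKO. Socs3 rose by 6.44 ± 0.084 and 6.95 ± 0.10, which did not pass (adjusted p = 0.0894). The smallest p-values belonged to Bcl6, a repressor that STAT5 is known to repress: it fell from 139 and 153 CPM to 30.5 and 30.2 CPM in fl/fl and went from 153, 157 and 143 CPM to 203, 198 and 224 CPM in cKO (difference 2.72 ± 0.10, adjusted p = 2.13e-11). Rgs1, a brake on G protein signals, rose by 0.70 in fl/fl and 1.96 in cKO, the translational regulator Cpeb3 fell in both (-2.46 in fl/fl and -0.57 in cKO), and Rab7b and Ccrl2 fell in fl/fl (-0.32 and -0.76) and rose in cKO (0.71 and 0.30). In the other direction, Egr2 rose by 0.77 in fl/fl and fell in cKO (-0.89), AU022793 and Lrp12 rose by 1.03 and 0.55 and fell in cKO (-0.62 and -0.43), and the rises of Rhoq and Arhgef40 were 1.48 and 3.52 in fl/fl and 0.42 and 1.79 in cKO. Thbs1 and Vegfa rose more in cKO, by 4.91 and 4.11, than in fl/fl, by 3.76 and 3.16 (adjusted p of the difference 0.000402 and 0.000161), and Il1rn rose less, by 3.34 against 4.27 (adjusted p = 0.000161). The count of differing genes depended on the fit: it was 170 without the mouse block, 66 without mouse 113 and 131 without mouse 112.

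**Figure D5:**
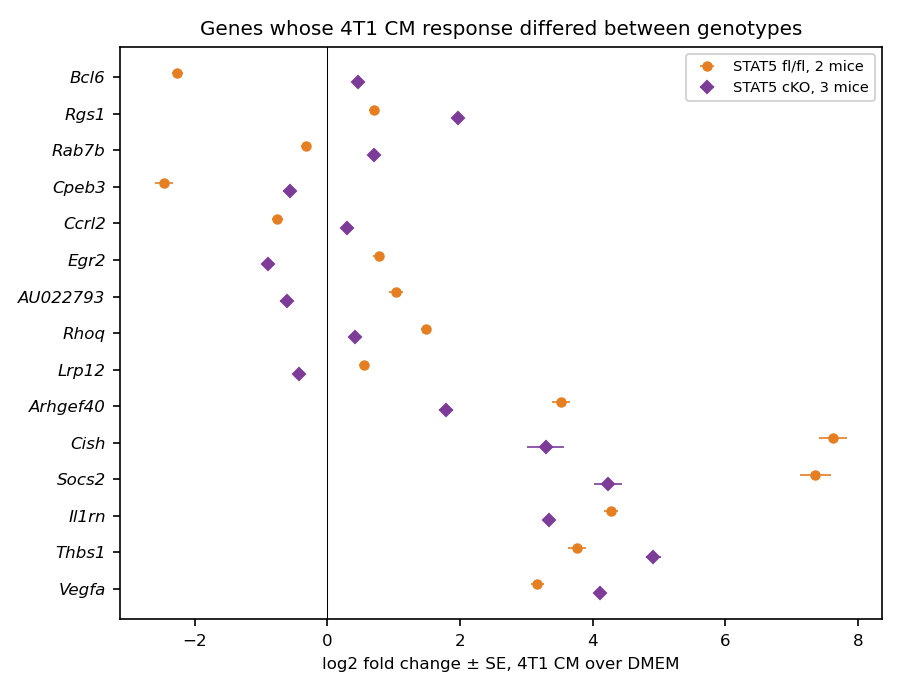
Log2 fold change with SE (x axis) of 4T1 CM over DMEM in STAT5 fl/fl (orange circles, 2 mice) and STAT5 cKO macrophages (purple diamonds, 3 mice) for the 10 genes with the smallest p-values of the difference, 5 in each direction, and 5 genes named above. Bcl6, Rab7b, Ccrl2, Egr2, AU022793 and Lrp12 lie on opposite sides of 0, and Cish and Socs2 lie right of 0 in both genotypes.

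A motif count over all start regions completed the description. Among windows of genes that rose at least 2-fold, 11.1% held the AP-1 motif TGANTCA, against 5.92% of windows of genes that fell at least 2-fold, 4.68% of those of uncalled genes and 5.17% of all tested. The E box CACGTG was in 10.3% of windows of genes that rose at least 2-fold, 13.7% of those that fell that much and 9.31% of those uncalled. The CREB core TGACGT, which the full CREB site contains, was in 10.8%, 6.77% and 11.9% in the same order. It was in 14.7% of windows of genes that rose under 2-fold, 9.64% of those that fell under 2-fold and 11.6% of all tested. Windows of 300 bases around the start site, several for some genes, were searched on both strands, and the shares describe letters near promoters, not bound factors.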

How the data were processed

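Total RNA of 15 BMDM libraries was sequenced from stranded TruSeq libraries. According to the methods and the submitters' processing notes, the authors trimmed reads with Trimmomatic 0.33, aligned them to GRCm38 with HISAT2 2.1.0 and counted fragments per gene on the annotated strand with featureCounts 1.6.2, leaving out reads of low mapping quality, so genes with near-identical copies are undercounted. The deposited table holds these raw counts, not normalized. Groups came from the sample titles, whose number was taken as the mouse; deviations of same-mouse libraries correlated at 0.0548 to 0.214, and at 0.0926 for fl/fl 4T1 CM and DMEM. One fl/fl replicate that the methods describe as removed is not analysed here.

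The fit used edgeR 4.0.16 (R 4.3.3) on all 15 libraries with RLE scaling, mouse as a block and a treatment effect in each genotype, tested by quasi-likelihood at an adjusted p under 0.01 over 13005 genes, those above 1 CPM in 2 or more libraries. Each of the 5 mice gave 3 libraries, 1 per medium, so p-values rest on the spread left after the level of each mouse is removed. Values are normalized CPM per library, and log2 fold changes are given ± SE. This SE is the absolute log2 fold change divided by the square root of the F statistic of its test. For genes with few counts in DMEM, such as Gja1, Gcnt2 and Socs3, it is smaller than counting error alone would give. The precision of such rises is therefore overstated. Counting intervals are exact 95% binomial intervals on summed counts, and a count of 0 was replaced by 3 counts per library for lower bounds; both cover counting error only. Alternatives were TMM, library totals, other filters, no block, the likelihood ratio test, DESeq2 1.42.0, limma 3.58.1 voom, fewer libraries and each mouse left out. Counts of this layout were also simulated (fl/fl 4T1 CM against DMEM, 12524 genes). There 200 genes above a minimum expected count were changed, up and down alike, and only in fl/fl 4T1 CM. Of those changed 1.5-fold 64% were called and of those changed 2-fold 88%, with 1.94% of calls false. In the data 39.5% of genes were called, so these shares need not hold there.

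The comparison, gene lists and markers were chosen with earlier results of these data known. Genes were named by rule: the 15 largest changes in each direction among called genes with a mean of at least 10 CPM and groups that did not overlap, up to 6 members of each list with the smallest adjusted p, and 5 in each direction for the contrasts with rmGM-CSF and between genotypes. Members called against their list were named in part, and in the CREB and ribosome biogenesis lists those that fell are not named. Other named genes were chosen after their values were seen. Promoter windows are RefSeq's for GRCm38.p6. Results for a few list members are not reported here.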

Additional observations from a re-analysis of the deposited data

Results flagged for a closer look

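The response to 4T1 CM differed between STAT5 cKO and STAT5 fl/fl macrophages by the test of the difference itself for 295 genes (2.27%; edgeR quasi-likelihood, adjusted p under 0.01). The genes named in the report that passed are given here with the difference, cKO minus fl/fl, on the log2 scale; a negative value stands for a smaller rise or a larger fall in cKO. No sample could be set apart by a gap test, since groups hold 2 or 3 libraries.

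Genes that rose in fl/fl and rose in cKO, with a lower value in cKO, were Arhgef40 (-1.73), Btg1 (-0.81), Ccl7 (-3.23), Ccl9 (-0.51), Ccnd2 (-1.18), Ccr1 (-0.78), Cd36 (-0.65), Cdkn1a (-0.58), Cish (-4.34), Csf2rb (-0.55), Ctla2a (-1.56), Cxcl2 (-1.13), Gcnt2 (-0.99), Heatr1 (-0.63), Il1rn (-0.94), Msr1 (-0.88), Ptger2 (-1.01), Rara (-0.57), Rhoq (-1.07), Socs2 (-3.13), Spred1 (-0.67) and Tgm2 (-0.41). Genes that fell in fl/fl and fell in cKO, with a higher value in cKO, were Cpeb3 (1.89), Crebrf (0.70), Engase (1.19), Fam214a (0.97), Fgd4 (1.22), Klhl24 (0.70), Slc40a1 (0.84), Tlr7 (0.60) and Ulk1 (0.53). Genes that rose in fl/fl and were not called in cKO, with a lower value in cKO, were Fnbp1l (-0.57), Mertk (-0.74), Pgf (-3.77) and Tnf (-0.83). Genes that rose in fl/fl and rose in cKO, with a higher value in cKO, were Fosb (1.96), Rgs1 (1.26), Thbs1 (1.15) and Vegfa (0.95). Genes that rose in fl/fl and fell in cKO, with a lower value in cKO, were AU022793 (-1.65), Egr2 (-1.66) and Lrp12 (-0.99). Genes that fell in fl/fl and rose in cKO, with a higher value in cKO, were Bcl6 (2.72), Ccrl2 (1.06) and Rab7b (1.03). The gene that was not called in fl/fl and fell in cKO, with a lower value in cKO, was Ccl4 (-1.30). The gene that was not called in fl/fl and rose in cKO, with a higher value in cKO, was Kdr (0.62). The gene that fell in fl/fl and was not called in cKO, with a higher value in cKO, was Mafk (0.56).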

How the results depend on the processing

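The count of 5142 changed genes lay between 4733 (DESeq2) and 5479 (likelihood ratio test) over the other normalizations, filters, tests, smaller sets of libraries and the fit with no replicate block (4835), and an adjusted p under 0.05 gave 6678. TMM gave 5150, no filter 5463, voom 5034, and the quasi-likelihood fit with legacy off, chosen after seeing the data, 5193. Leaving out 1 mouse gave 2990 to 5140 genes, 1602 to 2659 higher and 1388 to 2481 lower, the lowest without mouse 113. For rmGM-CSF the count of 4297 ranged from 1971 to 4301, with 880 to 1966 higher and 1091 to 2335 lower, again lowest without mouse 113.

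The count of 295 genes that differed between genotypes moved most. Without the replicate block it was 170 (99 higher and 71 lower in cKO), with no filter 576 (342 and 234), by the likelihood ratio test 475 (282 and 193), by voom 193 (76 lower), and at an adjusted p under 0.05 it was 608 (359 and 249). Leaving out 1 mouse gave 66 to 218 genes, 34 to 120 higher and 32 to 100 lower. The cause was not tested for the block and the other tests; the filter and the left-out mice change how many genes or samples enter.

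Of the genes named, those that lost their call were Abcg1, Bnip3, Cd74, Dusp8, Gapdh, Gm1821, Il6st, Klf6, Lifr, Ly96, Pfkl, Pfkm, Pkm, Ptger3, Spic, Stat5a, Ticam2, Tnfaip2 and Vegfb without mouse 112, and Bnip3, Cd74, Csf2ra, Ddit3, Dusp8, H2-Aa, Icam1, Ifit2, Il6st, Klf6, Ly96, Pfkl, Ptger3, Rab7b, Spic, Stat5a, Ticam1, Tnfaip2 and Vegfb without mouse 113. Without the replicate block they were Cd74, Dusp8, Fnbp1l, H2-Aa, Il6st, Lifr and Ly96, by voom Cd74, Dusp8, Gm1821, H2-Aa, Il6st, Lifr, Mmp14 and mt-Atp8, by DESeq2 Arg1, Bnip3, Dusp8 and Spic, under library totals Cd74 and Stat5a, without mouse 114 Dusp8 and Klf6, and with only the 4 libraries compared Dusp8. The genes that changed sign were Pim2 (-0.033), Spi1 (-0.093) and Stat5b (-0.036) under library totals, Spi1 with -0.045 to 0.13 over the mice left out, and mt-Atp8 with -6.16 to 0.73, the latter value without mouse 112. Depth limits the folds of genes with few counts in DMEM, and 2 mice a group limit the errors. The legacy quasi-likelihood form gave the same 5142 genes, since it is the default of the version used.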

Other observations

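Some genes outside the lists moved as well; all genes in this part were chosen after their values were seen. Nt5e (CD73), which makes adenosine from AMP, went from 3 and 1 counts in DMEM to 351 and 302 counts in 4T1 CM, a ratio of 187 (95% counting interval 72.6 to 688), and the adenosine receptor Adora3 from 0.364 and 0.253 CPM to 5.79 and 6.55 CPM (log2 fold change 4.30 ± 0.36). Entpd1 (CD39), the enzyme upstream of Nt5e, did not pass (-0.11 ± 0.086). The Notch ligand Jag1 was at 17.8 and 17.8 CPM and 260.3 and 200.3 CPM, and Jag2 and the receptor Notch1 were 5.1-fold and 3.45-fold higher. The metal-binding Mt2 rose 10.4-fold and Mt1 4.84-fold. Pmepa1, known as a TGF-beta target, went from 5 and 3.58 CPM to 124 and 95 CPM, Spsb1 rose 18.5-fold and the inhibitory Smad7 3.84-fold. The immune checkpoint genes Havcr2 (TIM-3) and Cd276 (B7-H3) rose 8.74-fold and 13.8-fold.

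Among the falls, Sesn1, an inhibitor of mTORC1, was at 147 and 156 CPM in DMEM and 23.7 and 28.7 CPM in 4T1 CM, Klhl24 at 296 and 280.2 CPM and 61 and 60.7 CPM, and Ccng2 at 67.3 and 64.2 CPM and 15.2 and 18.2 CPM. In each gene both 4T1 CM libraries lay below both DMEM libraries. Trp53inp1 (-2.18 ± 0.15), Pdcd4 (-1.95 ± 0.11), and the folliculin complex genes Flcn (-1.75 ± 0.079) and Fnip1 (-1.70 ± 0.086) fell as well, while of the FOXO genes Foxo3 fell (-0.71 ± 0.082) and Foxo1 rose (1.24 ± 0.095).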
